A study of Mus musculus with 8 samples.

Results

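The genes described here are 6 regulators of transcription in T follicular helper (Tfh) cells, namely Bcl6, Tox, Tox2, Pou2af1, Maf and Ascl2. They were taken from the array annotation as every probe set assigned to one of these symbols alone, which gave 17 of the 45037 probe sets in the table. A probe set is a group of short probes on the array that reads 1 transcript or gene. Maf had 6 probe sets, Tox 3, Ascl2 3, Bcl6 2, Tox2 2 and Pou2af1 1. The samples were memory CD4 T cells sorted as Tfh cells, which help B cells make antibody, or as T helper 1 (Th1) cells, known for interferon gamma. There were 4 groups of 2 arrays: Rictor-null Tfh, WT Tfh, Rictor-null Th1 and WT Th1. All mice had been infected with the Armstrong strain of lymphocytic choriomeningitis virus (LCMV), which they clear, and all cells came from spleen on day 60. Each array held RNA pooled from 10 or more mice, so an array averages over animals. The mouse strain, the age and sex of the mice, the deleted part of Rictor, the driver of the deletion and the sort gates are not stated in the labels. The labels call replicates biological without saying which mice each pool held, so p-values measure the spread between pools.

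Bcl6 encodes a zinc finger repressor that is required for Tfh cells and is held to define them. Tox and Tox2 encode related HMG-box DNA-binding proteins, and TOX2 in mouse Tfh cells is known to open chromatin at Tfh genes. Maf encodes the bZIP factor c-MAF, which promotes the cytokine genes Il21, Il4 and Il10 in T cells. Pou2af1 encodes OCA-B, a coactivator that binds the octamer factors OCT1 and OCT2 and is best known from B cells. Ascl2 encodes a basic helix-loop-helix factor that binds E boxes and promotes the chemokine receptor gene Cxcr5. Rictor, the gene named in the genotype, encodes a subunit specific to mTOR complex 2, which phosphorylates AKT and so restrains FOXO factors.

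Array medians ranged from 35.7 to 37.7 over the series, and precision is limited by having 2 arrays per group. On the third principal component (18.3% of the variance over genes) Rictor-null Tfh replicate 2 stood lowest, at -12.4, followed by WT Th1 replicate 1 at -6.49. Leaving both out is given for some of the calls that it changes. The brightest of 5 Rictor probe sets had signals of 563 and 576 in Rictor-null Tfh cells, against 560 and 563 in WT Tfh cells, and of 493 and 474 in Rictor-null Th1 cells, against 468 and 556 in WT Th1 cells. Of the 5, the dimmest alone passed between genotypes, higher in Rictor-null Tfh cells (0.30 ± 0.076, limma adjusted p = 0.0366). The labels do not say where the deletion lies, so these probe sets do not check the genotype labels. The CD4 T cell markers summed to 19318 to 21329 on every array. Cxcr5, the receptor by which Tfh cells enter B cell follicles, separated the lineages, with 241 and 297 in Rictor-null Tfh cells and 183 and 179 in WT Tfh cells, against 52.7 and 50 in Rictor-null Th1 cells and 55.7 and 46.8 in WT Th1 cells. Tbx21, which encodes the Th1 factor T-bet, overlapped between Rictor-null Tfh (465 and 439) and Rictor-null Th1 cells (448 and 463). In WT cells it had 430 and 422 in Tfh cells, below 451 and 444 in Th1 cells, and did not pass (-0.07 ± 0.056, limma adjusted p = 0.449). The Th1 markers summed to 21492 to 21590 in Rictor-null Tfh cells, above 20441 to 20869 in Rictor-null Th1 cells. In WT cells they summed to 19981 to 20113 in Tfh cells, above 17391 to 17679 in Th1 cells. These sums weigh bright genes most, and Ccl5 was the brightest. It had 9703 and 9891 in Rictor-null Tfh cells, against 8593 and 9083 in Rictor-null Th1 cells. In WT cells it had 8163 and 8173 in Tfh cells, against 6607 and 6436 in Th1 cells. The sums therefore do not describe the Th1 markers as a whole. Of 8 measured Th1 markers 1 was higher and 2 lower in Rictor-null Tfh cells (2.92% and 5.83% of all genes). In WT Tfh cells 2 were higher and 0 lower (2.01% and 8.21%). In bulk RNA, a change in the number of cells that carry a transcript and a change in its amount per cell cannot be told apart.

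The 6 genes lie on different chromosomes of the mouse genome (GRCm38.p6). Bcl6 (gene ID 12053) spans positions 23965050 to 23988866 of chromosome 16, Tox (252838) spans 6686353 to 6991557 of chromosome 4, and Tox2 (269389) spans 163203058 to 163324172 of chromosome 2. Pou2af1 (18985) spans 51213690 to 51240079 of chromosome 9, Maf (17132) spans 115703253 to 115706894 of chromosome 8, and Ascl2 (17173) spans 142966822 to 142969264 of chromosome 7. RefSeq promoter windows, from 250 bases before to 50 bases after an annotated start, were held for 4 of the 6 genes. They are shown to give the start regions of the genes described below. Where a gene had several windows (2 for Bcl6, 5 for Tox2), the outermost start of the table is printed. Capitals mark matches to the E box CANNTG.
Bcl6 (chr16:23988803-23989102, minus strand): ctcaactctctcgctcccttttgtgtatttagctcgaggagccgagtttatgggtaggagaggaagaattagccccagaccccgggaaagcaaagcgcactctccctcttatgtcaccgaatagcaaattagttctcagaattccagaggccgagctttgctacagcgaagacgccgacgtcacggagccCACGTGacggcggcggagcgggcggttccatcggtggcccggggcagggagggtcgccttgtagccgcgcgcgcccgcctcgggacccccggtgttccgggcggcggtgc
Tox2 (chr2:163202877-163203176, plus strand): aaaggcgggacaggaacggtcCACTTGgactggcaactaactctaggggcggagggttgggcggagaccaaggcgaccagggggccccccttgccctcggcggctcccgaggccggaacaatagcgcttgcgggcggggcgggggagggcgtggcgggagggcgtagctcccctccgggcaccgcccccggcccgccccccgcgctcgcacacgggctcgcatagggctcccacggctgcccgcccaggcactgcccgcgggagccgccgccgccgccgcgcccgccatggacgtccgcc
Pou2af1 (chr9:51213440-51213739, plus strand): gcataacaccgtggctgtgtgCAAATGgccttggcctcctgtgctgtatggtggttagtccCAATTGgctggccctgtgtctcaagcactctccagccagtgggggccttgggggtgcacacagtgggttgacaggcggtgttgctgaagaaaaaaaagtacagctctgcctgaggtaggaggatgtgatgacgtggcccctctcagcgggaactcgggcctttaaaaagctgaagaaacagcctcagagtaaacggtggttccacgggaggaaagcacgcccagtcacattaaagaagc
Ascl2 (chr7:142969215-142969514, minus strand): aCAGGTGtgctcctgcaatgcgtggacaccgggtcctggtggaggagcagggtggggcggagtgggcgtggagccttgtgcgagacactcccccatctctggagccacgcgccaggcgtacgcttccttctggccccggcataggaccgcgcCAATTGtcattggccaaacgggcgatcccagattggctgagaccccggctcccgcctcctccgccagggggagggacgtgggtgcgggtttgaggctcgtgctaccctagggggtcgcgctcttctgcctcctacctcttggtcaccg
Each of these 4 windows matched the general E box word CANNTG, with 1 match in Bcl6 (the palindrome CACGTG), 1 in Tox2, 2 in Pou2af1 and 2 in Ascl2. Among all windows of a gene, 1 of 2 for Bcl6 and 4 of 5 for Tox2 held a match. E boxes were found on either strand in 72.3% of 32851 promoter windows, so their presence is common. None of the windows of these genes matched the octamer ATGCAAAT (1.74% of all windows), the forkhead word GTAAACA (3.65%), the BCL6 word TTCCTAGAA (0.411%) or the MAF word TGCTGAC (4.67%), each searched on both strands. These matches describe letters and not binding. Tox and Maf are named only.

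Signals are intensities on a linear scale. Differences are log2 fold changes of the signal plus 32, with the standard error (SE) of a limma fit to all 8 arrays, and they understate changes of dim probe sets. Testing was limited to probe sets brighter than the array median on 2 or more of the 8 arrays. The words rose and fell are used where the adjusted p (limma, Benjamini-Hochberg over 23725 probe sets) was under 0.05. Of the 17 probe sets 13 were tested, and 4 lay below the median on all arrays (1 of Bcl6, 1 of Tox2 and 2 of Ascl2). Of the tested ones, Ascl2 1460514_s_at passed the filter only through both Rictor-null Tfh arrays, and Maf 1447945_at only through 1 Rictor-null Tfh and 1 WT Tfh array. Both are therefore described but left out of the counts, which cover 11 probe sets. Levels of the 6 genes are compared between arrays for the same probe set only.

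**Figure D1:**
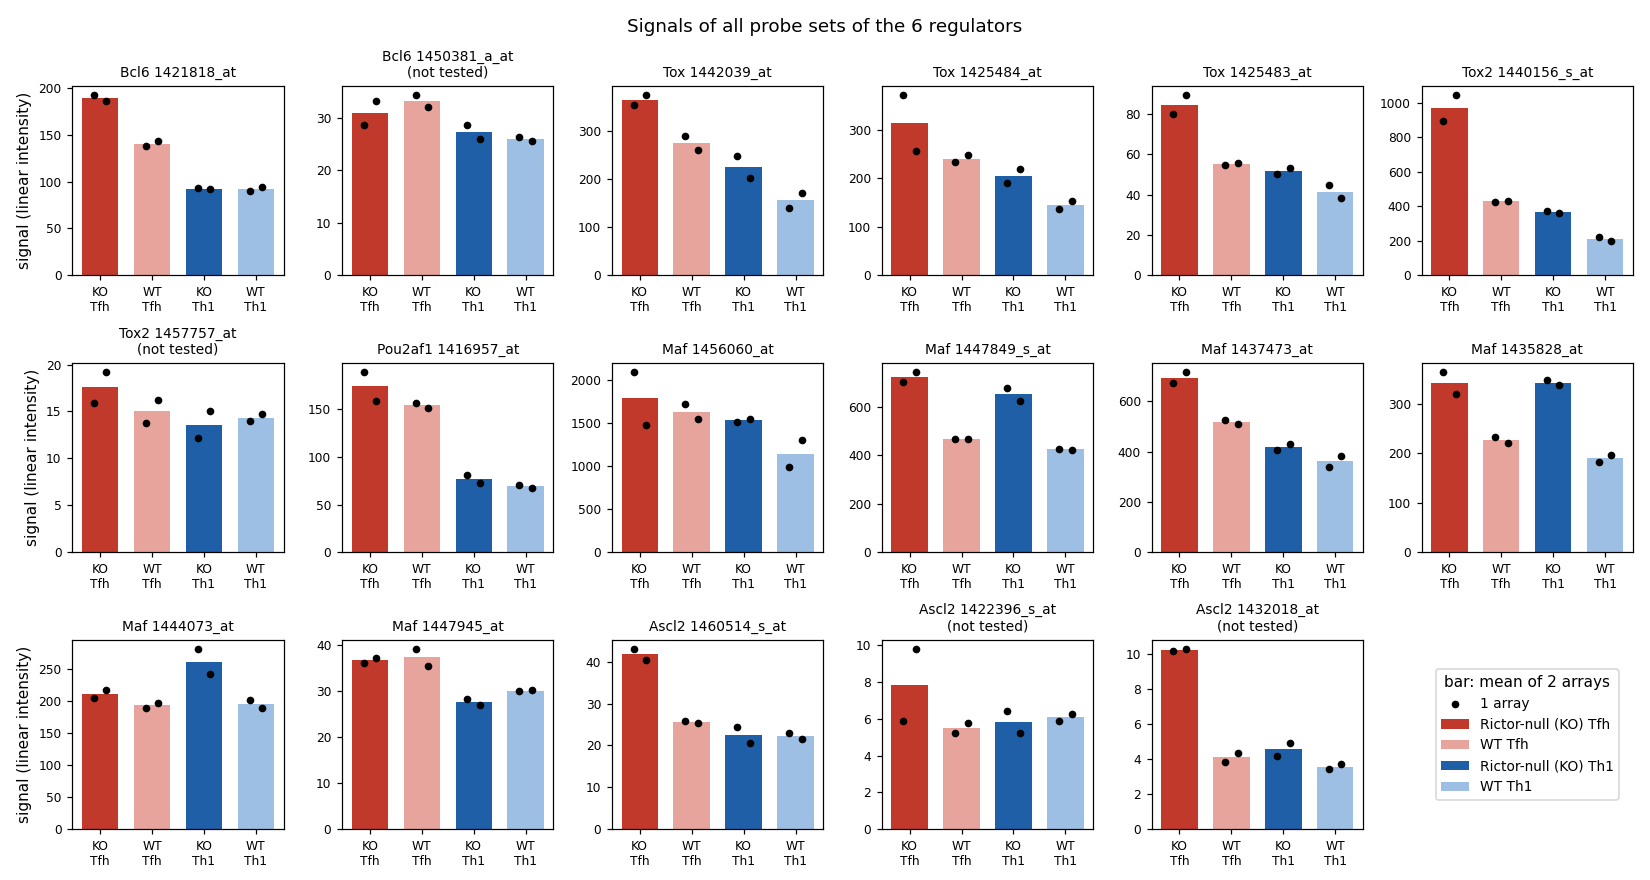
Signal (linear intensity, y axes starting at 0) of all 17 probe sets in Rictor-null (KO) and WT Tfh and Th1 cells, with bars for the mean of 2 arrays and points for single arrays. Tox2 1440156_s_at stands at 897 and 1045 in Rictor-null Tfh cells, above 428 and 432 in WT Tfh cells.

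Setting Rictor-null against WT Tfh cells asks whether the regulators of this lineage differ between cells of these genotype labels. Bcl6, Tox, Tox2 and Maf were higher in Rictor-null Tfh cells by at least 1 probe set that could be counted. Pou2af1 did not pass, and Ascl2 had no probe set that could be counted. By the brightest probe set of each gene, Bcl6 and Tox2 passed, and Tox and Maf did not. The share of all genes with at least 1 passing probe set was not counted. Of the 11 probe sets 6 rose and 0 fell, where 8.46% of all probe sets tested rose. Fewer of the 11 passed without WT Tfh replicate 1, where fewer of all probe sets tested passed as well. The median difference of the 11 was 0.37 log2, against 0.04 over all probe sets tested. In 10 of the 11 both Rictor-null arrays lay above both WT arrays, which was the case for 39% of all probe sets tested.

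Bcl6, the repressor, had signals of 192 and 186 in Rictor-null Tfh cells, against 138 and 143 in WT Tfh cells (probe set 1421818_at). The arrays did not overlap, and the difference was 0.36 ± 0.055 log2 (SE, n = 2 arrays per group), a signal ratio of 1.34, with limma adjusted p = 0.0045. The call ended without WT Tfh replicate 1 (adjusted p = 0.0677, range 0.00195 to 0.0677 over 21 alternatives), while the difference stayed between 0.24 and 0.41. The second Bcl6 probe set, 1450381_a_at, was below the array median everywhere, with 28.7 and 33.1 in Rictor-null Tfh cells and 34.3 and 32 in WT Tfh cells, which overlapped.

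Tox2, the HMG-box gene, had the largest difference of the 13 tested probe sets. Its probe set 1440156_s_at had 897 and 1045 in Rictor-null Tfh cells, against 428 and 432 in WT Tfh cells. Both Rictor-null arrays were far above both WT arrays, with 1.12 ± 0.080 log2 and a signal ratio of 2.26 (limma adjusted p = 6.95e-05). This call held under all 21 alternatives, with differences of 0.98 to 1.22. The other Tox2 probe set, 1457757_at, was dim in every group, at 15.9 and 19.2 in Rictor-null Tfh cells and 13.8 and 16.2 in WT Tfh cells.

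For Tox, the related gene, all 3 probe sets were higher on both Rictor-null Tfh arrays, and 1 passed. This was the dimmest, 1425483_at, with 79.8 and 89.2 in Rictor-null Tfh cells, against 54.6 and 55.4 in WT Tfh cells, a difference of 0.42 ± 0.067 (limma adjusted p = 0.00512). That call ended without WT Tfh replicate 1 (adjusted p = 0.0624), without WT Tfh replicate 2 (0.0529) and in an ordinary linear model (0.0671), in a range of 0.00372 to 0.0671 over 20 alternatives. The brightest, 1442039_at, had 355 and 375 in Rictor-null Tfh cells and 291 and 261 in WT Tfh cells, at 0.37 ± 0.10 (adjusted p = 0.0543), and passed in 6 of 21 alternatives. The third, 1425484_at, had 371 and 257 in Rictor-null Tfh cells, against 233 and 248 in WT Tfh cells, at 0.33 ± 0.13 (adjusted p = 0.147). Here the Rictor-null arrays differed from each other by more than the group means did, and the value was 0.09 without Rictor-null Tfh replicate 1 (adjusted p = 0.524) and 0.56 with replicate 2 left out instead (adjusted p = 0.0105), in a range of 0.00556 to 0.524 over 20 alternatives.

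For Maf, the c-MAF gene, 3 of 6 probe sets rose in Rictor-null Tfh cells. Probe set 1447849_s_at had 701 and 744 in Rictor-null Tfh cells, against 467 and 467 in WT Tfh cells, a rise of 0.60 ± 0.062 (limma adjusted p = 0.000563) that held under all 20 alternatives. Probe set 1435828_at had 364 and 319 in Rictor-null Tfh cells, against 232 and 220 in WT Tfh cells, and rose by 0.53 ± 0.071 (adjusted p = 0.00213). Probe set 1437473_at had 671 and 716 in Rictor-null Tfh cells, against 527 and 511 in WT Tfh cells, and rose by 0.40 ± 0.070 (adjusted p = 0.00872). In each of these 3 the genotypes lay apart. The last of them no longer passed when Rictor-null Tfh replicate 2 (adjusted p = 0.05), WT Tfh replicate 1 (0.0698) or WT Tfh replicate 2 (0.0902) was left out, or in an ordinary linear model (0.0867), in a range of 0.0073 to 0.0902 over 20 alternatives. For 1435828_at the ordinary linear model alone ended the call (0.0609). The brightest Maf probe set, 1456060_at, did not pass, with 2091 and 1481 in Rictor-null Tfh cells and 1722 and 1543 in WT Tfh cells (0.11 ± 0.16, adjusted p = 0.689). Its WT arrays lay between the Rictor-null arrays, and without the pair of arrays that stood apart (Rictor-null Tfh replicate 2, WT Th1 replicate 1) it gave 0.35 (adjusted p = 0.0336, range 0.0336 to 0.956). Without Rictor-null Tfh replicate 1 its direction turned, to -0.14, which did not pass. Probe sets 1444073_at (0.11 ± 0.074, adjusted p = 0.365) and 1447945_at (-0.01 ± 0.056, adjusted p = 0.898) did not pass either.

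Pou2af1, the OCT coactivator gene, did not pass between genotypes. Its single probe set had 189 and 159 in Rictor-null Tfh cells and 157 and 151 in WT Tfh cells, at 0.14 ± 0.077 (limma adjusted p = 0.258), and passed under none of 21 alternatives. The arrays did not overlap, but the lower Rictor-null array lay close to the higher WT array.

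Ascl2, the helix-loop-helix gene, was dim. Probe set 1460514_s_at had 43.1 and 40.5 in Rictor-null Tfh cells, against 25.9 and 25.3 in WT Tfh cells, with 0.36 ± 0.059 (limma adjusted p = 0.0061) and a signal ratio of 1.63. Since it entered the test through the Rictor-null Tfh arrays alone, this value is a description. Without WT Tfh replicate 1 its adjusted p was 0.0643, and without WT Tfh replicate 2 it was 0.0709, the highest of 20 alternatives. The untested probe set 1432018_at had 10.2 and 10.3 in Rictor-null Tfh cells, against 3.85 and 4.34 in WT Tfh cells. The third, 1422396_s_at, had 5.86 and 9.81 in Rictor-null Tfh cells, against 5.22 and 5.75 in WT Tfh cells. All 3 probe sets had higher signals on both Rictor-null Tfh arrays, as did 39% of all probe sets tested. Of the 3, 2 were untested and lay far below the array median, so this is a description.

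**Figure D2:**
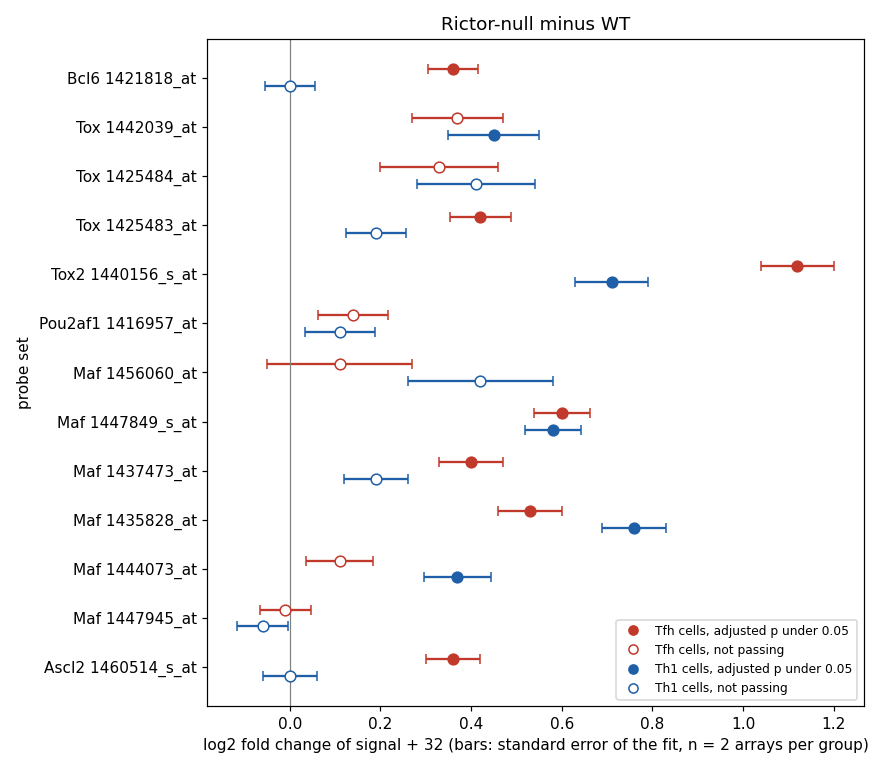
Rictor-null minus WT in Tfh and in Th1 cells for the 13 tested probe sets, as log2 fold change of the signal plus 32 (x axis, bars for the standard error, n = 2 arrays per group), with filled points where the adjusted p was under 0.05. Bcl6 and Ascl2 1460514_s_at lie at 0.36 in Tfh cells and at 0.00 in Th1 cells, while Tox2 and 2 Maf probe sets are filled in both.

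The genotypes were also compared in the other memory lineage. Tox, Tox2 and Maf were higher in Rictor-null Th1 cells by at least 1 counted probe set, though the brightest Maf probe set did not pass. Bcl6, Pou2af1 and Ascl2 did not pass. Of the 11 probe sets 5 rose and 0 fell, where 6.39% of all probe sets tested rose. Fewer of the 11 passed without Rictor-null Th1 replicate 1, where fewer of all probe sets tested passed as well. The median of the 11 was 0.41 log2, against 0.00 over all. In 10 of the 11 both Rictor-null arrays lay above both WT arrays, against 28.8% of all probe sets tested.

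Tox2 1440156_s_at had 376 and 361 in Rictor-null Th1 cells, against 225 and 201 in WT Th1 cells, and rose by 0.71 ± 0.080 (limma adjusted p = 0.000673). The rise ended as a call only in an ordinary linear model (adjusted p = 0.0554, the highest of 21 alternatives). Tox 1442039_at rose by 0.45 ± 0.10 (adjusted p = 0.0275), with 248 and 202 in Rictor-null Th1 cells, against 140 and 172 in WT Th1 cells. This Tox call was lost in 8 of 21 alternatives, among them those leaving out Rictor-null Th1 replicate 1 (adjusted p = 0.184) or WT Th1 replicate 1 (0.175), with no filter (0.0922) and with the replicate number as a block (0.0505), in a range of 0.0149 to 0.201. The other Tox probe sets were also higher on both Rictor-null arrays, at 0.41 ± 0.13 (1425484_at, adjusted p = 0.0922) and 0.19 ± 0.067 (1425483_at, adjusted p = 0.118). Without the pair of arrays that stood apart, 1442039_at had 0.33 and 1425484_at had 0.35.

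For Maf, 3 of 6 probe sets rose in Rictor-null Th1 cells. Probe set 1435828_at had 347 and 338 in Rictor-null Th1 cells, against 183 and 197 in WT Th1 cells, a rise of 0.76 ± 0.071 and a signal ratio of 1.80 (limma adjusted p = 0.000241). Probe set 1447849_s_at had 680 and 623 in Rictor-null Th1 cells, against 427 and 424 in WT Th1 cells, and rose by 0.58 ± 0.062 (adjusted p = 0.000521). Both held under all 20 alternatives, and in both the genotypes did not overlap. Probe set 1444073_at rose by 0.37 ± 0.074 (adjusted p = 0.016), with 281 and 241 in Rictor-null Th1 cells, against 202 and 188 in WT Th1 cells. Leaving out Rictor-null Th1 replicate 1 (adjusted p = 0.111) or WT Th1 replicate 2 (0.0908) ended this call, as did an ordinary linear model (0.128), in a range of 0.0107 to 0.128. Probe set 1456060_at, with 1511 and 1547 in Rictor-null Th1 cells and 988 and 1302 in WT Th1 cells, had 0.42 ± 0.16 (adjusted p = 0.141), and 1437473_at had 0.19 ± 0.070 (adjusted p = 0.133).

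Bcl6 1421818_at overlapped between the Th1 groups, with 93 and 92 in Rictor-null Th1 cells and 89.9 and 94.5 in WT Th1 cells, a difference of 0.00 ± 0.055 (limma adjusted p = 0.977). Pou2af1 had 80.6 and 72.8 in Rictor-null Th1 cells and 71 and 66.9 in WT Th1 cells (0.11 ± 0.077, adjusted p = 0.44). Ascl2 1460514_s_at had 24.4 and 20.6 in Rictor-null Th1 cells and 22.9 and 21.6 in WT Th1 cells, below the array median on all 4 arrays.

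Whether the genotype difference itself depended on the lineage was tested as an interaction, the difference in Tfh cells minus that in Th1 cells. Of the 11 probe sets 0 passed in limma, where 1.26% of all probe sets did. An unadjusted p under 0.05 was reached by 5, but the share of all probe sets that reach it was not counted. The 5 did not share a direction, as Maf 1435828_at and 1444073_at were negative and the others positive. Bcl6 had 0.35 ± 0.078 (adjusted p = 0.0758) and Tox2 0.41 ± 0.11 (adjusted p = 0.127). Without Rictor-null Tfh replicate 1, which leaves 1 array in that group, the values were 0.33 for Bcl6 and 0.51 for Tox2. Both passed in that fit, but so did a larger share of all probe sets tested. Both failed under each of the other 19 alternatives, with adjusted p up to 0.362 and 0.416. Ascl2 1460514_s_at had 0.35 ± 0.083 (adjusted p = 0.0891). Among Maf probe sets 1435828_at (-0.23 ± 0.10, adjusted p = 0.266) and 1444073_at (-0.26 ± 0.11, adjusted p = 0.239) had the larger value in Th1 cells, and 1437473_at (0.20 ± 0.099, adjusted p = 0.307) the larger value in Tfh cells. A rise that passed in Tfh cells alone, as for Bcl6, was thus not shown to differ between the lineages.

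The comparison of Tfh with Th1 cells within a genotype asks how far these regulators mark the Tfh lineage at the memory stage. It shares its arrays with the comparisons above, so the values are given side by side. In Rictor-null cells 7 of the 11 probe sets were higher in Tfh cells and 0 were lower, where 4.22% of all probe sets tested were higher. In WT cells 7 of 11 were also higher and 0 lower, where 2.31% of all were higher. Fewer of the 11 passed in WT cells without WT Tfh replicate 1 or without WT Tfh replicate 2, where fewer of all probe sets tested passed as well. The medians were 0.53 in Rictor-null cells and 0.49 in WT cells, against -0.01 and -0.05 over all probe sets tested. Both Tfh arrays lay above both Th1 arrays in 8 of the 11 in Rictor-null cells (23.2% of all) and in 10 in WT cells (21% of all).

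Pou2af1 was higher in Tfh than in Th1 cells of both genotypes, by 0.92 ± 0.077 in Rictor-null cells (limma adjusted p = 0.000173) and by 0.88 ± 0.077 in WT cells (adjusted p = 0.00036). Its signal ratio of Tfh over Th1 was 2.27 in Rictor-null and 2.24 in WT cells, and the calls held under all 21 alternatives. Bcl6 1421818_at was higher by 0.83 ± 0.055 in Rictor-null cells (adjusted p = 4.42e-05) and by 0.48 ± 0.055 in WT cells (adjusted p = 0.00197). Tox2 1440156_s_at was higher by 1.32 ± 0.080 in Rictor-null cells (adjusted p = 3.02e-05) and by 0.92 ± 0.080 in WT cells (adjusted p = 0.000365), where the WT call was lost only in an ordinary linear model (0.052). All 3 Tox probe sets were higher in Tfh cells, by 0.48 to 0.63 in Rictor-null cells and by 0.25 to 0.72 in WT cells. The smallest of these, 1425483_at in WT cells, had adjusted p = 0.0496 and was lost in 10 of 20 alternatives, up to 0.229. Tox 1425484_at was lost in 10 of 20 alternatives in Rictor-null cells, up to 0.228, and in 7 of 20 in WT cells, up to 0.165, which in WT cells included each WT array left out in turn. Tox 1442039_at in WT cells was lost without WT Tfh replicate 1 (adjusted p = 0.0755) and in an ordinary linear model (0.0985).

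Ascl2 1460514_s_at had 0.44 ± 0.059 for Tfh minus Th1 in Rictor-null cells (limma adjusted p = 0.0023) and 0.09 ± 0.059 in WT cells (adjusted p = 0.352), where both lineages were below the array median. It had entered the test through its Rictor-null Tfh arrays.

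The Maf probe sets did not give 1 answer on lineage. Probe set 1437473_at was higher in Tfh cells by 0.69 ± 0.070 in Rictor-null cells (limma adjusted p = 0.000538) and by 0.49 ± 0.070 in WT cells (adjusted p = 0.0049), although the WT call ended without either WT Tfh array (0.073 and 0.0513). By contrast 1435828_at had -0.01 ± 0.071 in Rictor-null cells (adjusted p = 0.965) and 0.22 ± 0.071 in WT cells (adjusted p = 0.0794). Probe set 1447849_s_at had 0.14 ± 0.062 in Rictor-null cells (adjusted p = 0.185) and 0.13 ± 0.062 in WT cells (adjusted p = 0.207). Probe set 1444073_at was lower on both Rictor-null Tfh arrays than on both Rictor-null Th1 arrays, at -0.27 ± 0.074 (adjusted p = 0.051), which passed with median centring (-0.30, adjusted p = 0.0313) and on leaving out Rictor-null Th1 replicate 2 (-0.37, adjusted p = 0.0344). The dim 1447945_at had 0.21 ± 0.056 in Rictor-null cells (adjusted p = 0.0472) and passed in 3 of 19 alternatives. Probe set 1456060_at had 0.20 ± 0.16 in Rictor-null cells (adjusted p = 0.47) and 0.51 ± 0.16 in WT cells (adjusted p = 0.0703). Its value in Rictor-null cells ranged from -0.04 to 0.44 over 21 alternatives, the highest without the pair of arrays that stood apart. Over the 8 arrays the 15 pairs of Maf probe sets had Pearson r from -0.583 to 0.955 (median 0.55), against 0.825 to 0.882 for the 3 pairs of Tox probe sets. Which part of the transcript each probe set reads is not stated in the files.

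**Figure D3:**
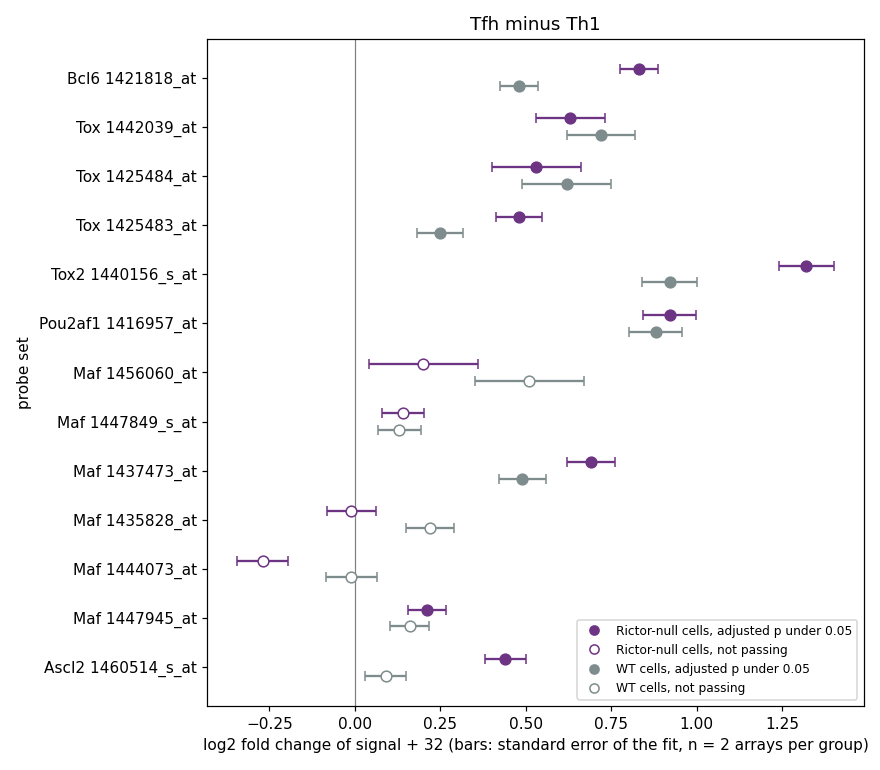
Tfh minus Th1 in Rictor-null and in WT cells for the 13 tested probe sets, as log2 fold change of the signal plus 32 (x axis, bars for the standard error, n = 2 arrays per group), with filled points where the adjusted p was under 0.05. Pou2af1 lies at 0.92 in Rictor-null and 0.88 in WT cells, and the 6 Maf probe sets spread from -0.27 to 0.69.

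The order of the 4 groups is given as a description, since its share over all probe sets was not counted. For the brightest probe sets of Tox, Tox2 and Pou2af1 it was Rictor-null Tfh, WT Tfh, Rictor-null Th1 and WT Th1, from high to low, and no neighbours in this order overlapped. For Bcl6 and for Ascl2 1460514_s_at Rictor-null Tfh lay above WT Tfh and both lay above the Th1 groups, which overlapped and had no order. For Maf 1456060_at the first 3 groups overlapped with their neighbours, and WT Th1 was lowest. Maf 1447849_s_at had both Rictor-null groups above both WT groups, as did 1435828_at and 1444073_at. Maf 1437473_at had the order of Tox, and the dim 1447945_at had both Tfh groups above both Th1 groups, with the Tfh groups overlapping.

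The genes whose brightest tested probe set followed each regulator most closely over the 8 arrays are given as a description, since all of them share the same 4 groups. Among 11217 genes, Bcl6 was followed by Kcnip3 (Pearson r = 0.995), the chemokine gene Xcl1 (0.992) and Ddx43 (0.981). Tox was followed by Kif3b (0.981), Galnt2 (0.978) and Cemip2 (0.975), and Tox2 by Wdr95 (0.984), Pdgfb (0.984) and Pdcd1 (0.982), which encodes the inhibitory receptor PD-1. Pou2af1 was followed by Rhoq (0.994), the T-box factor gene Eomes (0.993) and Ccnc (0.986). Maf 1456060_at was followed by Tob2 (0.986), Timm17b (0.973) and Hmgb2 (0.966), and Ascl2 1460514_s_at by Fas (0.986), Cebpa (0.982) and Kif1b (0.974).

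Other genes of the Tfh program were taken from lists and read by the brightest probe set of each gene. In Tfh cells 9% of all genes rose and 1.46% fell between genotypes, and in Th1 cells 6.69% rose and 2.3% fell. Of 15 Tfh receptor, ligand and cytokine genes 11 rose and 0 fell in Rictor-null Tfh cells (median 0.38), led by Sostdc1 (1.55 ± 0.058), the cytokine gene Il21 (0.80 ± 0.071), Pdcd1 (0.77 ± 0.072) and the chemokine receptor gene Cxcr4 (0.77 ± 0.070). In Rictor-null Th1 cells 9 rose and 1 fell (median 0.36), with Sostdc1 at 1.00 ± 0.058 and the interleukin 6 receptor gene Il6ra as the fall (-0.36 ± 0.074, limma adjusted p = 0.0165). Cxcr5, which ASCL2 and BCL6 are known to favour, rose by 0.49 ± 0.089 in Tfh cells (adjusted p = 0.0094) and had 0.00 ± 0.089 in Th1 cells (adjusted p = 0.983), and its interaction of 0.49 ± 0.13 did not pass (adjusted p = 0.108).

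Of 8 genes reported as MAF targets 7 were measured, and 6 rose in each lineage with 0 falls (medians 0.49 in Tfh and 0.42 in Th1 cells). Il21, Il4, Icos and Cxcr5 stand in this list and in the one above, so their counts are not separate. Il10, an anti-inflammatory cytokine gene, had 154 and 146 in Rictor-null Tfh cells, against 47.2 and 51.3 in WT Tfh cells, and rose by 1.16 ± 0.063 (limma adjusted p = 2.06e-05). In Th1 cells Il10 rose by 0.42 ± 0.063, Il21 by 0.49 ± 0.071, the cytokine gene Il4 by 0.46 ± 0.066 and the inhibitory receptor gene Ctla4 by 0.86 ± 0.055. Ccr6 did not pass in Tfh cells (-0.07 ± 0.077), and Cxcr5 did not pass in Th1 cells.

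Among 16 measured genes reported as repressed by BCL6, 1 rose and 0 fell in Rictor-null Tfh cells (median 0.06), the rise being the chemokine gene Ccl5 (0.26 ± 0.056, limma adjusted p = 0.0205). In Rictor-null Th1 cells 5 rose and 1 fell (median 0.12), with Ccl5 at 0.44 ± 0.056, the Th2 factor gene Gata3 at 0.45 ± 0.069 and Prdm1, which encodes the BCL6 antagonist BLIMP-1, at 0.32 ± 0.061. Of 9 measured BCL6 corepressor genes 0 passed in Tfh cells by limma and 2 had an unadjusted p under 0.05, Hdac5 (0.18 ± 0.074) and Hdac3 (0.14 ± 0.060). Hdac4 alone rose in Th1 cells (0.34 ± 0.057, adjusted p = 0.00602).

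Of 12 measured other factors that promote Tfh cells 5 rose and 0 fell in Rictor-null Tfh cells (median 0.17). They were Id3 (0.69 ± 0.088), Irf4 (0.48 ± 0.069), Egr2 (0.45 ± 0.054), the AP-1 factor gene Batf (0.42 ± 0.075) and Nfatc1. In Rictor-null Th1 cells Irf4 (0.42 ± 0.069) and Egr2 (0.33 ± 0.054) rose, and Lef1, which encodes a partner of TCF1 upstream of Bcl6, fell (-0.33 ± 0.069, limma adjusted p = 0.0185). Of 13 measured factors that oppose Tfh cells 1 rose (Eomes, 0.33 ± 0.077) and 1 fell (the repressor gene Bach2, -0.37 ± 0.054) in Tfh cells, and 2 rose and 2 fell in Th1 cells. Of these 13 genes 7 are also in the list of BCL6-repressed genes, and both Th1 rises, Prdm1 and Gata3, were counted there. Of 7 measured family members and DNA-binding partners, such as Tox4 (0.06 ± 0.066) and the OCT2 gene Pou2f2 (0.30 ± 0.11, adjusted p = 0.11), the small MAF gene Maff (0.29 ± 0.055, adjusted p = 0.0119) alone rose in Tfh cells and 0 passed in Th1 cells.

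**Figure D4:**
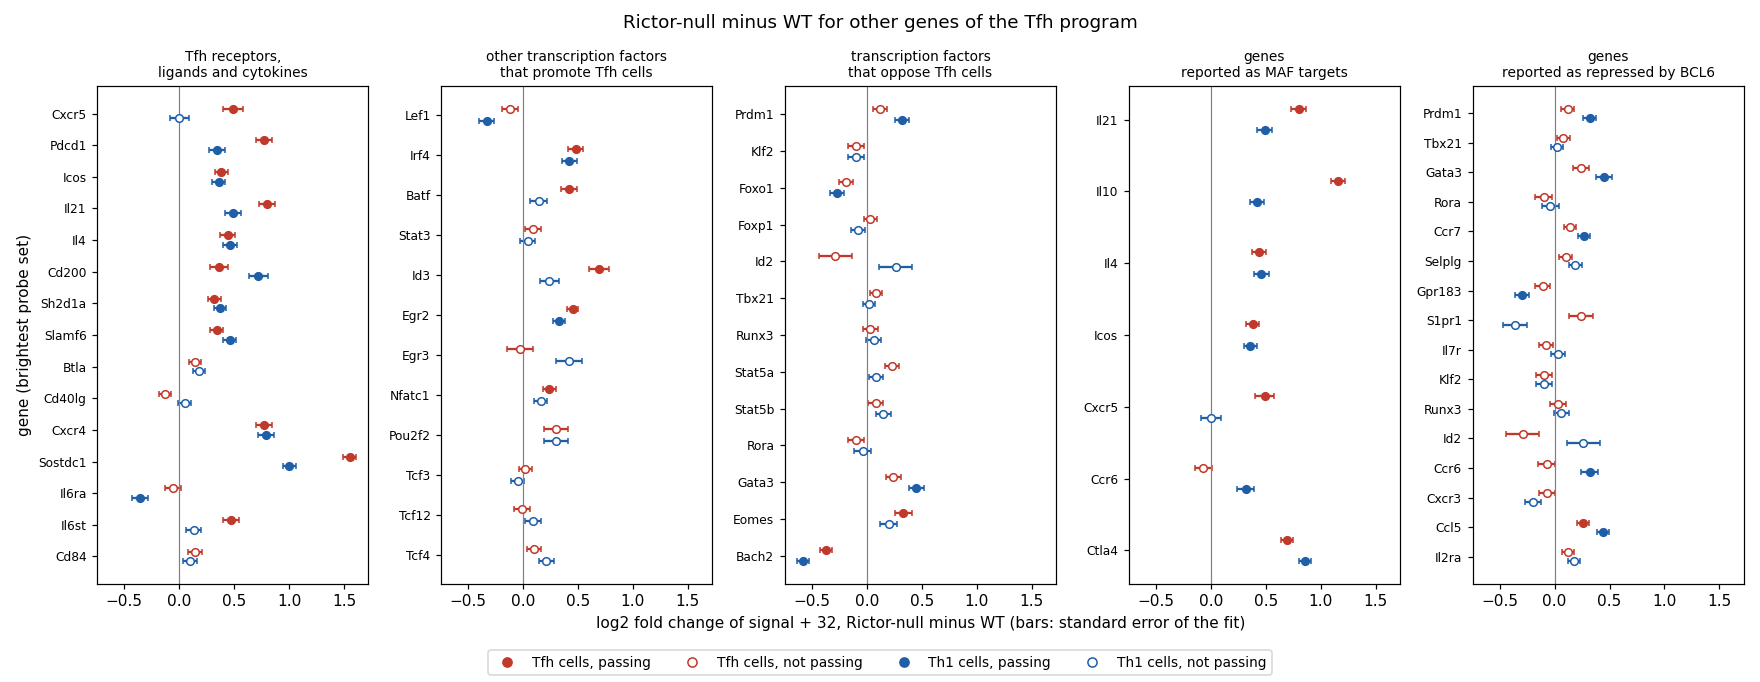
Rictor-null minus WT in Tfh and in Th1 cells for 5 lists of other genes, as log2 fold change of the signal plus 32 (x axis, bars for the standard error, n = 2 arrays per group), with filled points where the adjusted p was under 0.05. Receptor and cytokine genes and MAF targets lie mostly to the right of 0 in both lineages, and Cxcr5 lies at 0.49 in Tfh and 0.00 in Th1 cells.

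Between the lineages, 2.92% of all genes were higher and 5.83% lower in Tfh cells of Rictor-null mice, and 2.01% were higher and 8.21% lower in Tfh cells of WT mice. Of the 15 Tfh receptor, ligand and cytokine genes 5 were higher and 4 lower in Rictor-null Tfh cells, and 6 were higher and 4 lower in WT Tfh cells. Cxcr5 was higher by 1.85 ± 0.089 in Rictor-null and by 1.36 ± 0.089 in WT cells, and the adaptor gene Sh2d1a by 0.64 ± 0.057 in Rictor-null and by 0.69 ± 0.057 in WT cells. Il4 was lower in Tfh cells of both genotypes (-0.42 ± 0.066 in Rictor-null and -0.40 ± 0.066 in WT cells). Eomes was far higher in Tfh cells, with 1184 and 1030 in Rictor-null Tfh cells, against 85.4 and 79.7 in Rictor-null Th1 cells, and 912 and 833 in WT Tfh cells, against 66.9 and 68.3 in WT Th1 cells. Of the 16 genes reported as repressed by BCL6, 1 was higher and 7 lower in Rictor-null Tfh than Th1 cells, and 2 were higher and 3 lower in WT cells, with Gata3 (-0.78 ± 0.069 in Rictor-null and -0.57 ± 0.069 in WT cells) and the homing receptor gene Ccr7 (-0.57 ± 0.054 and -0.44 ± 0.054) lower in both.

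Bcl6 and Pou2af1 are also expressed by B cells, so B cell markers are given beside them. Of 16 B cell markers 14 had a probe set and 5 lay above the filter, and Cd79a (19.1 to 28), Ms4a1 and Pax5 (23.3 to 33.6) lay below the array median on all 8 arrays. The summed B cell marker signal was 2847 to 3214 in Rictor-null Tfh cells, 2582 to 2648 in WT Tfh cells, 2210 to 2271 in Rictor-null Th1 cells and 2658 to 2797 in WT Th1 cells. Most of each sum was Ighm alone. It had 2225 and 2525 in Rictor-null Tfh cells and 1979 and 1925 in WT Tfh cells. In Th1 cells it had 1734 and 1725 in Rictor-null and 2213 and 2108 in WT cells. Between genotypes, 1 of the 5 rose in Tfh cells (Ighm, 0.28 ± 0.069, limma adjusted p = 0.0362) and 0 fell, against 9% and 1.46% of all genes. In Th1 cells 1 rose (Cd74, 0.41 ± 0.069) and 2 fell (Cd22, -0.57 ± 0.090, and Ighm, -0.32 ± 0.069, adjusted p = 0.0223), against 6.69% and 2.3% of all genes. Between lineages, Ighm was higher in Rictor-null Tfh cells (0.45 ± 0.069) and did not pass in WT cells (-0.14 ± 0.069). Cd22 was higher in Tfh cells, by 0.95 ± 0.090 in Rictor-null and 0.50 ± 0.090 in WT cells.

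The CD8 T and NK cell markers summed to 5906 to 6303 in Rictor-null Tfh cells, against 3564 to 3749 in WT Tfh cells, and to 3041 to 3185 in Rictor-null Th1 cells, against 1669 to 1683 in WT Th1 cells. Of 8 measured members 7 rose in Tfh cells (9% of all genes) and 4 in Th1 cells (6.69% of all genes), led by Gzma. These counts include Klre1, which entered the test through its Rictor-null arrays alone, so its values are a description. Of the CD8 chains, Cd8b1 had 58.3 and 62.5 in Rictor-null Tfh cells, against 45.2 and 43.3 in WT Tfh cells (0.28 ± 0.058, limma adjusted p = 0.0179), and Cd8a did not pass and lay between 39.1 and 52.2 on every array. Regulatory T cell markers, which include Il10 and Ctla4, summed to 6222 to 6322 in Rictor-null Tfh cells, against 3918 to 4064 in WT Tfh cells, and to 6412 to 6515 in Rictor-null Th1 cells, against 3921 to 4019 in WT Th1 cells. Of 8 measured members 5 rose in each lineage, where 9% of all genes rose in Tfh and 6.69% in Th1 cells. Foxp3, which defines regulatory T cells, did not pass the filter and was not tested. It had 27.5 and 41.5 in Rictor-null Tfh cells, against 18.7 and 22.9 in WT Tfh cells. In Th1 cells it had 35 and 27.5 in Rictor-null, against 16.9 and 23.7 in WT cells. Both Rictor-null arrays thus lay higher in each lineage, as in 39% of all probe sets tested in Tfh and 28.8% in Th1 cells, so this is a description. Myeloid markers summed to 899 to 913 in Rictor-null Tfh cells, against 811 to 848 in WT Tfh cells, and to 859 to 1009 in Rictor-null Th1 cells, against 803 to 828 in WT Th1 cells. Of 5 measured members 0 rose and 1 fell in Tfh cells (Fcgr1, -0.38 ± 0.090, limma adjusted p = 0.0309), against 9% and 1.46% of all genes. In Th1 cells 0 passed, with 1 at an unadjusted p under 0.05. Of 7 measured CD4 T cell markers 0 passed in either lineage by limma, with 2 in Tfh and 1 in Th1 cells at an unadjusted p under 0.05. The part of these other cells in the differences of the 6 regulators was not tested.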

How the data were processed

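Affymetrix arrays measured RNA from mouse memory CD4 T cells, 2 samples in each of 4 groups given by the titles. The deposited table holds probe set intensity on a linear scale. The authors' scaling is not given in words, and the submitters' processing notes name MAS5 and RMA with no version or role. The 8 columns have close medians. Symbols came from the platform annotation, where 34945 probe sets had 1 symbol, 932 several and 9160 none, and matching gene IDs to RefSeq (GRCm38.p6) changed 0 symbols.

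From the intensities log2 values were computed after adding 32. Of 45037 probe sets 23725 exceeded the array median on 2 or more arrays and were tested. All 8 arrays entered 1 limma fit (limma 3.58.1, R 4.3.3) with group means as coefficients. Contrasts used moderated variances (residual degrees of freedom 4, prior 5.37) and Benjamini-Hochberg adjustment over all probe sets tested. The fit was tested on simulated data. The labels call the replicates biological, and each is a pool. Exact permutation of 2 against 2 arrays reaches no two-sided p under 0.333 and was not used. For other genes the probe set with the highest mean was used. The genes named are the 6 regulators, the 4 genes of each list with the smallest p per comparison, defining cell markers, and the 3 genes with the highest Pearson r to each regulator, and other genes were named after their values were seen where a count was of 5 or fewer. The regulators and the lists were chosen with earlier results of these data known. Alternatives varied scaling, filter, pseudocount, probe set choice, variance model, arrays and the replicate number as a block. Figures were drawn with matplotlib 3.10.9 in Python 3.11.15.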

Additional observations from a re-analysis of the deposited data

Results flagged for a closer look

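For 5 genes of the lists the genotype difference in Tfh cells differed from that in Th1 cells by the interaction test of the limma fit, with adjusted p over all 23725 probe sets. None of the 11 counted probe sets of the 6 regulators was among them. Among all genes, by the brightest tested probe set, 1.02% passed this test. The lists share genes, and how many different genes they hold was not counted, so the number 5 is a description. The interaction was 0.55 for Sostdc1 (adjusted p = 0.0206) and 0.74 for Il10 (adjusted p = 0.0101), both with the larger rise in Tfh cells. It was 0.59 for the immunoglobulin gene Ighm (adjusted p = 0.0308), which rose in Rictor-null Tfh cells and fell in Rictor-null Th1 cells. It was -0.93 for the NK receptor gene Klre1 (adjusted p = 0.0104) and -0.75 for the granzyme gene Gzma (adjusted p = 0.0124), both with the larger rise in Th1 cells. Klre1 entered the test through its 4 Rictor-null arrays alone, with WT signals of 26.3 and 32 in Tfh and 12.2 and 9.61 in Th1 cells, below the array median, so its value is a description. Groups of 2 arrays are too small to test single arrays as outliers.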

How the results depend on the processing

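The 21 settings gave 1307 values for the 13 tested probe sets, of which 1202 stayed on the same side of the threshold, 74 lost a call and 31 gained one. Of the 1202, 22 had the opposite sign, in values that did not pass, and 0 called values changed sign. The counts below are of the 11 counted probe sets that passed. Shares, where given beside them, are of all probe sets tested that passed in either direction. In the main fit the shares were 10.1% for genotype in Tfh cells and 8.75% in Th1 cells. For lineage they were 9.4% in WT and 10.3% in Rictor-null cells, and for the interaction 1.26%. In an ordinary linear model without moderation the count was 3 for Rictor-null minus WT in Tfh cells (2.46% of all) and 2 in Th1 cells (2.49%). In that model it was 2 for Tfh minus Th1 in WT cells (1.04%) and 4 in Rictor-null cells (1.89%). With 1 probe set per gene 5 of the 11 remain by construction. The count was then 3 for genotype in Tfh cells (13.6% of all), 2 for genotype in Th1 cells (10.5%) and 4 for lineage in Rictor-null cells (9.72%). Leaving out single arrays gave 3 to 7 for genotype in Tfh cells (3 without WT Tfh replicate 1), 3 to 7 in Th1 cells (3 without Rictor-null Th1 replicate 1), 3 to 9 for lineage in WT cells (3 and 4 with WT Tfh replicate 1 or 2 left out), 6 to 7 for lineage in Rictor-null cells and 0 to 2 for the interaction (2 without Rictor-null Tfh replicate 1). The fits that leave out 1 array assume that the lone array left varies like the other groups. The share of all probe sets tested that passed moved in these fits as well. That share fell in the fits named above for genotype and for lineage in WT cells, and rose in the one named for the interaction. These moves in the counts are therefore not particular to the regulators. With Rictor-null Tfh replicate 2 and also WT Th1 replicate 1 left out, a setting added after seeing the data, the counts were 8, 5, 7, 8 and 0. In that setting the shares of all probe sets tested were lower than in the main fit for genotype and lineage, and slightly higher for the interaction. Quantile normalization and median centring left 63 of 65 values each on the same side. The cause of the lost calls was not tested.

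The labels give the groups the same replicate numbers and do not say that a number marks shared animals. Deviations of equal numbers correlated between -0.526 and 0.31 across the 6 pairs of groups, so the numbers were not taken to pair the arrays. With the replicate number as a block the counts were 6 for genotype in Tfh cells (7.2% of all probe sets tested) and 4 in Th1 cells (6.83%). For lineage they were 6 in WT cells (5.13%) and 6 in Rictor-null cells (7.81%), and for the interaction 0 (0.75%). With 2 arrays per group, and for probe sets near the array median, small differences may not be detectable.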
